A study of Mus musculus with 4 samples.

Results

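The cells described here are the Kit+ Adgrg1+ blood cells of the fetal thymus, proposed as its early seeding multipotent progenitors. They were chosen cell by cell from 4 droplet RNA-seq libraries: at least 200 genes, at most 10% mitochondrial UMIs (unique molecular identifiers, each standing for 1 captured transcript), at least 1 UMI of Ptprc (the pan-leukocyte protein CD45), of Kit (the stem cell factor receptor) and of Adgrg1 (the adhesion receptor GPR56), no UMI of Rag1, Klrd1 or Pdgfra, and at most 1 UMI of Csf1r or of Epcam. The rule kept 1181 cells of 6052 Ptprc+ cells and of 29510 cells in all. There were 676 in the Tbx1+/+ carrier library, 207 in the Tbx1neo2/neo2 carrier library, 132 in the Tbx1neo2/neo2 minoxidil library and 166 in the Tbx1neo2/neo2 PGE2 library.

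The study asked whether minoxidil or prostaglandin E2 given in utero changes the small thymus of a mouse model of 22q11.2 deletion syndrome. Tbx1neo2/neo2 mice are homozygous for a hypomorphic allele of Tbx1, a transcription factor gene of that region. Tbx1+/neo2 mice were crossed with each other. On embryonic days 8, 9 and 10 the dams received minoxidil, PGE2 or 5% ethanol as carrier into the peritoneum. Thymic lobes were taken at embryonic day 13 to 13.5. Dosing was thus of the whole dam, lobes were pooled where the tissue was hypoplastic, and the Tbx1+/+ mice of this series received carrier alone. Each condition is 1 library, so differences between conditions are given as values, without a test, and intervals cover counting error alone.

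Thymus-seeding cells arrive from the fetal liver by the blood, before T cell fate is fixed. They carry Kit and traces of myeloid and stem cell programs, and Notch ligands of the thymic epithelium then switch on Tcf7 and Gata3, followed by Il2ra and Bcl11b as the other fates are closed. Rag1, which cuts antigen receptor genes, and the CD3 chains mark the later steps, so a gate without Rag1 UMIs keeps the early side of that path.

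Libraries differed in depth and in the sex of their cells, and both bear on what follows. The median UMI count of Kit+ Adgrg1+ cells was 38170.5 in Tbx1+/+ carrier, 32777 in Tbx1neo2/neo2 carrier, 67647 in minoxidil and 53671.5 in PGE2. The libraries held 292687940, 194023208, 151740600 and 156363845 UMIs in that order. In the minoxidil library 128 of 132 Kit+ Adgrg1+ cells had a UMI of Xist, the RNA of the inactive X, and 0 had one of 4 Y-linked genes. In the PGE2 library 164 of 166 had a Y-linked UMI and 0 had one of Xist. Both carrier libraries held cells of each kind: 150 with Xist alone and 475 with a Y gene alone in Tbx1+/+, and 98 and 90 in Tbx1neo2/neo2. Each carrier library thus drew on at least 2 embryos, and sex and drug cannot be told apart. Between 4 and 35 cell barcodes were shared by pairs of libraries, and 0 of these were Kit+ Adgrg1+ cells in both.

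Kit and Adgrg1 were no rare pair among blood cells of this age. Both had a UMI in 59.3% of Ptprc+ cells of Tbx1+/+ carrier, 53.7% of Tbx1neo2/neo2 carrier, 77.5% of minoxidil and 64.6% of PGE2. In Pdgfra+ Ptprc- mesenchymal cells, which should lack both and show the background of free RNA, the shares were 1.31%, 0.216%, 0.524% and 0.675%, at median depths of 16157, 14122.5, 31172.5 and 24948 UMIs. In Epcam+ Ptprc- epithelial cells, which were deeper at medians of 24760, 27931, 53596 and 45183 UMIs, they were 2.27%, 1.03%, 2.44% and 1.35%.

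The share of Ptprc+ cells that passed the gate was highest in Tbx1+/+ carrier and lowest in PGE2. Tbx1+/+ carrier stood at 22.2% (Clopper-Pearson 95% interval 20.7 to 23.7) and Tbx1neo2/neo2 carrier at 19.6% (17.3 to 22.1). The minoxidil library stood at 18.0% (15.3 to 21.0) and the PGE2 library at 13.7% (11.8 to 15.7). The interval of PGE2 lay below the other 3 except for a narrow overlap with minoxidil, and the other 3 overlapped in part. With Epcam, Pdgfra and Csf1r cells out of the denominator, PGE2 stood at 31.4% (27.4 to 35.5). It then overlapped Tbx1neo2/neo2 carrier at 36.2% (32.2 to 40.3) and minoxidil at 34.6% (29.9 to 39.7), but not Tbx1+/+ carrier at 40.1% (37.8 to 42.5). With cells thinned to 10000 UMIs, so that the gates meet the same depth in each library, the shares became 22.3%, 15.5%, 21.7% and 13%. Cells with fewer UMIs were left out: 480, 50, 6 and 16 Ptprc+ cells, of which 13, 0, 0 and 0 were Kit+ Adgrg1+ cells. This step thus took most cells from the denominator of Tbx1+/+ carrier. The minoxidil share then stood beside Tbx1+/+ carrier, and Tbx1neo2/neo2 carrier stood beside PGE2. At 5000 UMIs the shares were 12.2%, 9.58%, 9.57% and 6.83%, and minoxidil stood beside Tbx1neo2/neo2 carrier. The order of the middle libraries thus turned with depth, and the gap between Tbx1+/+ carrier and PGE2 was present at each depth. Ptprc+ cells were themselves unequal parts of the libraries, and of all kept cells the gate held 5.89%, 1.94%, 4.12% and 4.0%. A lower share cannot be told apart from more cells of the other blood types.

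In Tbx1neo2/neo2 carrier, cells with Xist and cells with a Y gene differed in the gated share as much as libraries did. In Tbx1+/+ carrier the intervals of the 2 kinds overlapped. The kinds also differed in make-up in Tbx1neo2/neo2 carrier: Ptprc+ cells were 30.3% of kept cells with Xist alone and 8.21% of those with a Y gene alone. In Tbx1neo2/neo2 carrier the gate held 98 of 278 Ptprc+ cells with Xist alone, or 35.3% (29.6 to 41.2), and 90 of 577 with a Y gene alone, or 15.6% (12.7 to 18.8). Thinned to 10000 UMIs these were 22.8% (17.4 to 29.0) and 12.8% (9.78 to 16.4). In Tbx1+/+ carrier the values were 24.4% (21.1 to 28.0) and 26.8% (24.7 to 28.9), and thinned 23.9% and 23.2%. After thinning, the female-only minoxidil library and the male-only PGE2 library stood at 21.8% and 13.5% of such cells. These values lay near the Xist and the Y cells of Tbx1neo2/neo2 carrier. At full depth they were 17.9% (15.2 to 20.9) and 14.2% (12.3 to 16.4), both near its Y cells, so the match by sex held after thinning alone. Sex, embryo and treatment cannot be told apart here, and the number of embryos behind each class is not known.

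**Figure D1:**
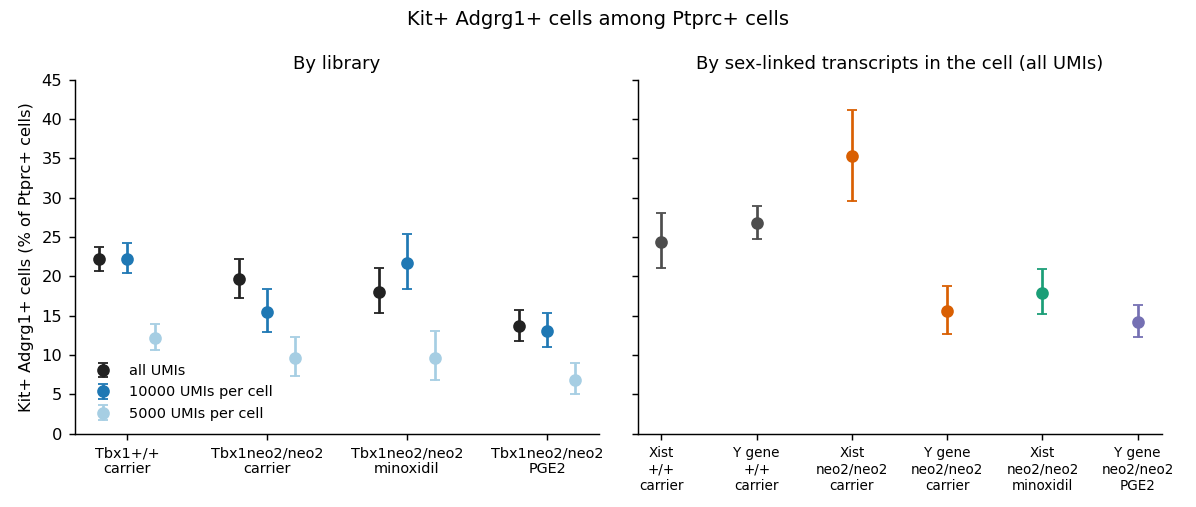
Share of Ptprc+ cells that passed the Kit+ Adgrg1+ gate, in percent, by library (left; all UMIs, 10000 and 5000 UMIs per cell) and by sex-linked transcripts in the cell (right; all UMIs). Bars are Clopper-Pearson 95% intervals of counting error; the Xist cells of Tbx1neo2/neo2 carrier stand at 35.3% and its Y cells at 15.6%.

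Of the genes that mark the label, Mpo and Cd48 were carried by many of these cells and Flt3 by few, and genes of T-lineage entry were present beside them. The label of a multipotent progenitor was thus met in part, and the cells are called here by their gate. Levels are given below in UMIs per 1000000 UMIs of the summed cells (CPM), a scale that compares cell sets for 1 gene and not 1 gene with another. Mpo, Serpinb1a, Cd48 and Flt3 were named when the cells were chosen, and their values are a description without a test. On GRCm38 the gene bodies lie at chr11:87793581-87804413 (Mpo), chr13:32842092-32851185 (Serpinb1a), chr1:171682009-171705258 (Cd48) and chr5:147330741-147400489 (Flt3), those of the gate at chr5:75574916-75656722 (Kit).

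Mpo, myeloperoxidase, and Prtn3, proteinase 3, are enzymes of the primary granules of young granulocytes, and both were present. Mpo stood at 62.1 CPM in Tbx1+/+ carrier, 64.1 in Tbx1neo2/neo2 carrier, 67.2 in minoxidil and 76.3 in PGE2. In the later Rag1+ Cd3g+ cells of the same libraries, T-lineage cells past the onset of Rag1, Mpo was at 20.3, 8.78, 13.7 and 10.1 CPM, below every value of the Kit+ Adgrg1+ cells. After thinning, 33.9%, 31.4%, 32.6% and 42.2% of Kit+ Adgrg1+ cells had an Mpo UMI, against at most 0.636% of Pdgfra+ cells. Prtn3 was at 44.0, 54.3, 42.8 and 57.8 CPM, and at 10.7, 4.47, 7.84 and 10.8 in Rag1+ Cd3g+ cells. Elane, neutrophil elastase, which lies next to Prtn3 on chromosome 10 with RefSeq starts 6645 bases apart, gave 0.190 CPM in Tbx1+/+ carrier and 0 in the others, and Ctsg, cathepsin G, stayed under 0.45 CPM. Only part of the primary granule set was therefore detected, Mpo and Prtn3 with Elane and Ctsg near 0, and with Cebpa and Cebpe, the granulocyte transcription factors, under 0.8 CPM in every library.

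The sequences before the RefSeq starts of Prtn3 and Elane are shown because Prtn3 had UMIs in these cells in all 4 libraries and its neighbour Elane in 1 alone. Each is the stretch from -250 to -66 of the RefSeq start on build GRCm38.p6, plus strand, at chr10:79879417-79879601 for Prtn3 and chr10:79886062-79886246 for Elane, and capitals mark GAGGAA, a core bound by PU.1 (Spi1) and other ETS factors. The bases nearer the start were left out because the GENCODE annotation, from which the gene bodies above are taken, begins these first exons further upstream. GENCODE also has a longer Prtn3 transcript, with which the gene body runs over chr10:79874476-79883174, so the Prtn3 stretch is upstream of the RefSeq start but inside an intron of that transcript.
Prtn3: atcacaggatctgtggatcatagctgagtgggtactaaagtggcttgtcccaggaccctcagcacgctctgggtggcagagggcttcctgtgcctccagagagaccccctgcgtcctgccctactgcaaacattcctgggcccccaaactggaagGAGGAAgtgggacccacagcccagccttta
Elane: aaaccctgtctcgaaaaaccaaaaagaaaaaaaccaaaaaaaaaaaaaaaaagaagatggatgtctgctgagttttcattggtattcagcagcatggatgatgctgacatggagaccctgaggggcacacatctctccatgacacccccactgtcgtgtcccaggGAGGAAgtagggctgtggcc
GAGGAA began at -95 from the start in Prtn3 and at -85 in Elane, on the plus strand. On both strands it occurs in 17.6% of 32851 promoter windows of this length. The letters TGTGGT (a RUNX core, in 10.7% of windows), TTGCNNAA (a C/EBP core, 7.62%) and CAACTG (a MYB core, 8.31%) gave 0 matches in either window, and no motif overlaps another. The stretches of both genes thus held the same match, which is a description and not a site.

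Serpinb1a, an inhibitor of neutrophil proteases, was at 187, 206, 164 and 199 CPM in the order of the libraries above. It was found in 61.4% to 75.9% of thinned cells, against 2.10% to 9.75% of Pdgfra+ cells. Rag1+ Cd3g+ cells held 88.0, 62.0, 73.2 and 90.5 CPM, again below every Kit+ Adgrg1+ value. Nkg7, a granule membrane protein of cytotoxic cells, was at 207 to 221 CPM, and Calr, the chaperone calreticulin, at 608 to 655 CPM.

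Cd48, a SLAM-family surface protein that appears as stem cells become multipotent progenitors, was at 153, 135, 141 and 120 CPM. It was lower in Rag1+ Cd3g+ cells, at 93.9, 68.5, 85.1 and 89.1 CPM. Thinned cells with a UMI of Cd48 made up 67.6%, 61.4%, 59.8% and 63.3%, with 1.39% or fewer among Pdgfra+ cells. Flt3, the receptor that marks lymphoid-primed progenitors, was sparse at 8.17, 10.6, 7.0 and 4.81 CPM, and 7.09%, 8.70%, 5.30% and 3.61% of thinned cells had a UMI. These shares were above those of Pdgfra+ cells, which reached 0.213%. Its level was higher than in Rag1+ Cd3g+ cells (1.52 to 2.72 CPM) and lower than in the Kit+ Adgrg1- blood cells described below (10.7 to 26 CPM). Dntt, which adds bases to receptor joints, had no UMI in any library. Il7r, the interleukin 7 receptor, was at 34.9 to 51.0 CPM and Cd27, a costimulatory receptor, at 102 to 115 CPM.

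Stem and progenitor regulators ran from abundant to nearly absent. Myb and Runx1, needed for definitive blood formation, were at 305 to 362 CPM and 178 to 202 CPM. Spi1, which encodes PU.1 and is turned down as T cells commit, was at 110, 119, 108 and 108 CPM, and Mef2c, a factor of lymphoid-myeloid progenitors, at 95.6, 96.4, 85.0 and 86.8 CPM. Bcl11a was at 123 to 142 CPM, and Cd34, a progenitor surface protein, at 124, 98.0, 102 and 70.4 CPM. The factors that set long-term stem cells apart were close to the floor, with Hlf at 5.29, 3.69, 2.89 and 0.801 CPM and Mecom and Procr under 1.5 CPM in each library. Spi1 and Mef2c varied little across libraries, while Cd34 and Hlf were lowest in PGE2.

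Among homing genes, Itga4 (the alpha chain of VLA-4, an integrin for vessel walls) was at 344 to 454 CPM and Selplg (the P-selectin ligand) at 64.0 to 93.6 CPM. Cd44, a hyaluronan receptor, was at 41.8 to 47.1 CPM. Ccr9 and Ccr7, the chemokine receptors known to guide thymus settling, were at 1.92 to 8.36 CPM and under 1 CPM. Cxcr4, the receptor of Cxcl12, was at 27.3, 17.4, 37.9 and 28.6 CPM. At 10000 UMIs per cell 23.5%, 15.5%, 30.3% and 20.5% of cells had a Cxcr4 UMI, against at most 2.46% of Pdgfra+ cells (59.9%, 37.2%, 79.5% and 72.3% of cells at full depth).

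Tcf7, Gata3 and Il2ra were carried well above background, and Hes1, a Notch target, was common in mesenchymal cells too. Notch1 was at 110 to 127 CPM and its target Hes1 at 155, 157, 186 and 201 CPM. A Hes1 UMI was found in 67.6%, 68.1%, 66.7% and 69.9% of thinned cells, against 52.5%, 25.1%, 53.3% and 56.1% of Pdgfra+ cells. Tcf7, the first T-lineage factor induced by Notch, was at 173, 149, 206 and 230 CPM and reached 63.8%, 63.3%, 75.8% and 75.3% of thinned cells, against at most 4.04% of Pdgfra+ cells. Gata3 was at 74.2 to 83.8 CPM, in 43.4% to 50% of thinned cells against at most 9.34%. Il2ra, CD25, was at 81.4, 69.6, 115 and 111 CPM, in 28.7%, 22.7%, 38.6% and 36.1% of thinned cells, against at most 1.11% of Pdgfra+ cells. Tcf7, Hes1 and Il2ra were each higher in both drug libraries than in both carrier libraries. Bcl11b, the commitment factor, was at 8.74, 10.3, 17.9 and 47.5 CPM, and Cd3e at 8.86, 10.5, 13.3 and 11.9 CPM. Ptcra, the pre-T alpha chain, stayed under 5 CPM.

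**Figure D2:**
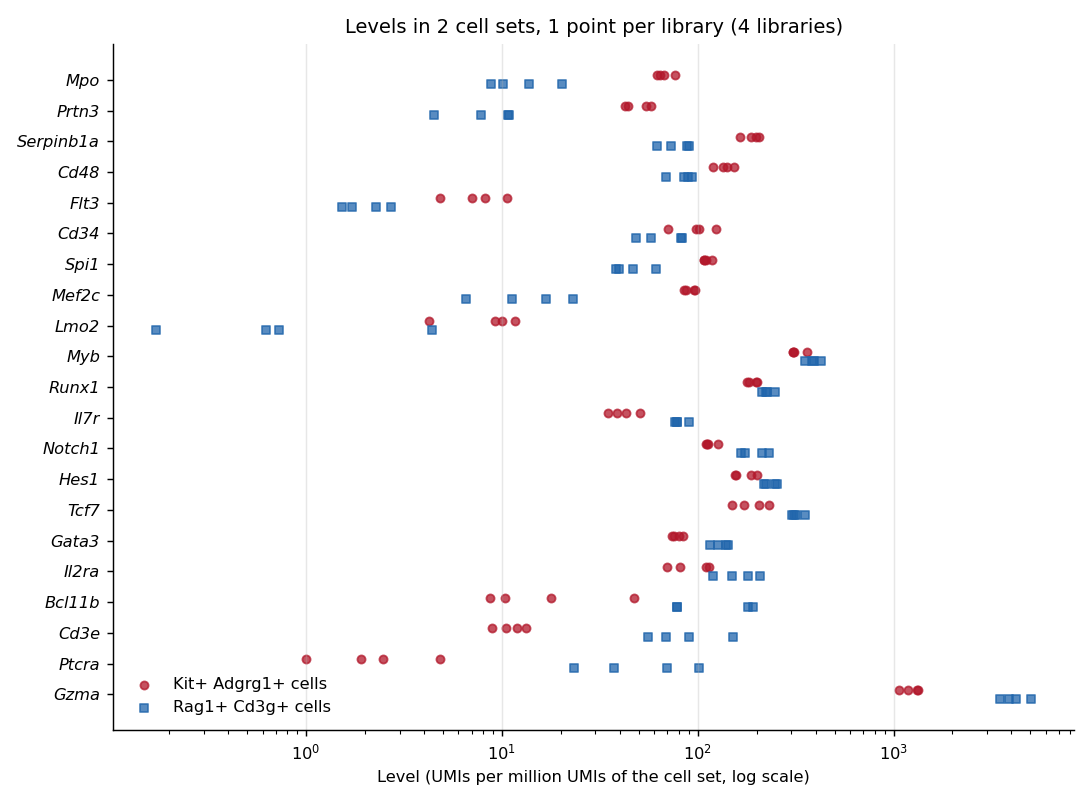
Level of 21 genes (CPM of the cell set, log axis) in Kit+ Adgrg1+ cells (red circles) and Rag1+ Cd3g+ cells (blue squares), 1 point per library. Points of Mpo, Prtn3, Serpinb1a, Cd48, Flt3, Spi1 and Mef2c do not overlap between the sets and lie higher in Kit+ Adgrg1+ cells, and those of Tcf7, Cd3e, Ptcra and Gzma lie higher in Rag1+ Cd3g+ cells.

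Kit+ Adgrg1+ cells were set beside 980 Rag1+ Cd3g+ cells (423, 182, 156 and 219) to see what changes across the onset of Rag1. UMIs were summed per library and set and tested with edgeR's quasi-likelihood test with library as a block, so that the 4 libraries were the replicates. The libraries differ in genotype and treatment, and the p-values measure how steady a gap between sets is over them. Genes of the gates were left out, and genes known to be switched on with Rag1 and Cd3g, such as Cd3d, Cd3e and Ptcra, are not independent of the gate. Of 12398 genes, 561 (4.52%) were higher in Kit+ Adgrg1+ cells and 725 (5.85%) lower, 10.4% in all, at a Benjamini-Hochberg adjusted p under 0.05, and the median log2 fold change of all genes was 0.000147. Leaving out the minoxidil library gave 348 and 460, and leaving out Tbx1+/+ carrier gave 367 and 472.

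Among genes at 50 CPM or more that moved the same way in all 4 libraries, Mef2c had the largest rise (log2 fold change 2.63, SE 0.26, edgeR adjusted p = 3.61e-05, 90.9 against 14.4 CPM on average). It was followed, after Mpo, by Bex6 at 1.99, Cd52 (a small glycoprotein of the leukocyte surface) at 1.68, Rgs1 (a regulator of chemokine receptor signals) at 1.46, Ctla2a (a protease inhibitor) at 1.36, Ptp4a3 (a phosphatase) at 1.31 and Tnfrsf23 (a TRAIL decoy receptor) at 1.20. Spi1 was higher by 1.25 (SE 0.19, edgeR adjusted p = 9.78e-04). The strongest falls were Ptcra at -4.21, Cd3d at -3.45, Lef1 (a partner of Tcf7) at -3.05, Nlrp6 at -2.97, Cd3e at -2.93, Bcl11b at -2.78, Thy1 (a T-lineage surface protein) at -2.75, Fbp1 (an enzyme of gluconeogenesis) at -2.67, Tubb3 at -2.60 and Insl5 at -2.33.

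By role, the lists moved apart. Of 22 stem and multipotent progenitor genes, 10 were higher (Spi1, Mef2c, Lmo2, Hoxa9, Mycn, Tal1, Bcl11a, Angpt1, Erg and Hhex) and 1 lower (Mllt3, -0.80), with a median log2 fold change of 0.76. Lmo2, a bridge protein of stem cell factor complexes, rose by 2.54, Hoxa9 by 1.76 and Mycn by 1.66. Of the 5 granule genes tested other than Mpo and Serpinb1a, which the choice of cells had named, Prtn3 was higher at 2.46 and the receptor Clec12a lower at -0.55. Of 17 genes of Notch response and T-lineage entry, 0 were higher and 15 lower, with a median of -1.34 and with Zap70 and Cd7 not called. The CD3 chains and Ptcra in this list are not independent of a gate on Rag1 and Cd3g, so part of this count follows from the gate. The lowering was mild for Hes1 (-0.44), Lck (-0.61), Gata3 (-0.74), Notch1 (-0.76), Tcf7 (-0.78) and Il2ra (-0.79) and deep for the CD3 chains, Lef1 and Bcl11b.

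Homing genes went both ways, and lymphoid priming genes were level or lower. Of the 7 priming genes other than Cd48 and Flt3, which the choice of cells had named, 0 were higher and 5 lower, among them Rag2 (-1.60), Il7r (-0.96), Notch1 and Satb1 (-0.42). Rag2 is not independent of a gate on Rag1. Of 10 homing genes, Cd44 (1.20) and Ccr9 (1.81, at 4.08 against 1.13 CPM) were higher and Cxcr4 (-0.67) and Selplg (-0.61) lower. Of 12 cell cycle genes, 10 were not called and Ube2c and Mki67 were lower, with a list median of -0.19. Both sets carried cell cycle transcripts, with Top2a, the topoisomerase of dividing cells, at 388 to 540 CPM against 444 to 594 CPM in Rag1+ Cd3g+ cells.

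A comparison across Adgrg1 used 168 Kit+ cells with no Adgrg1 UMI and otherwise the same limits (72, 49, 16 and 31 cells). Their median depth was 21575.5, 18158, 35784 and 23667 UMIs, below that of Kit+ Adgrg1+ cells in each library. A shallow cell can miss an Adgrg1 UMI by depth alone, so depth and Adgrg1 go together in this comparison. Thinned to 10000 UMIs, the set held 104, 65, 49 and 50 cells. This set was a mix that differed by library: granulocyte genes summed to 6385 CPM in Tbx1+/+ carrier and under 4 CPM in the others, mast cell genes to 3952 CPM in Tbx1neo2/neo2 carrier and 492 to 581 CPM elsewhere, and dendritic genes to 2561 CPM in PGE2. Erythroid genes summed to 6148, 16234, 161 and 231 CPM, and in Tbx1neo2/neo2 carrier 1 cell held 10099 of 10150 Hbb-y UMIs. Here 2163 genes (17.4%) were higher in Kit+ Adgrg1+ cells and 2482 lower, 37.5% in all, and gates thinned to 10000 UMIs gave 398 and 718. Mpo gave 0, 2, 0 and 0 UMIs in the Kit+ Adgrg1- set, and Ly6d, a marker of lymphoid progenitors at 4.41 to 15.0 CPM in Kit+ Adgrg1+ cells, gave none. Nfe2, a factor of the erythroid and megakaryocyte lines, was higher by 3.33 (SE 0.27, edgeR adjusted p = 4.93e-06), followed by Plekha7 at 3.13, Khdc1a at 2.98, Emilin2 at 2.89, Mzb1 at 2.70, the DNA methyltransferase gene Dnmt3b at 2.66, Ctla2a at 2.57, Rasgrp2 at 2.53 and Vamp5 at 2.51. The lowest were MHC class II genes and genes of antigen-presenting and innate lymphoid cells: H2-Aa at -7.44, H2-Eb1 at -6.59, Cd74 at -6.27, Batf3 at -5.47, Lgals3 at -5.05, Ctss at -4.47, Rora at -4.47, Lta at -4.33 and H2-Ab1 at -4.27. In Kit+ Adgrg1+ cells these genes averaged from 1.07 CPM (Batf3) to 9.13 CPM (H2-Ab1). Those near the floor passed the count filter mainly through other cells, so their direction was largely fixed beforehand. These folds describe the mix in the Kit+ Adgrg1- set.

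Gene lists went apart in the same comparison, in part through how the sets were made. All 11 innate lymphoid and all 6 dendritic genes tested were lower in Kit+ Adgrg1+ cells, as were 6 of 7 mast cell genes. Of the whole lists, 7 of 13, 5 of 10 and 6 of 11 genes were under 1 CPM in Kit+ Adgrg1+ cells. Genes that low could pass the count filter only through other cells, so for them a lower call was largely fixed beforehand. These counts describe the mix in the Kit+ Adgrg1- set and are no result about Kit+ Adgrg1+ cells. Of the 17 T-lineage genes, 5 were higher (Dtx1 1.73, Notch1 1.68, Il2ra 1.39, Lck 1.01 and Hes1 0.29) and 9 lower, led by Cd3d at -3.09 and Cd7 at -2.71. Hes1 was at -0.0084 with gates thinned to 10000 UMIs, so its direction turned with depth. Of 10 homing genes, 0 were higher and 5 lower, with Ccr9 at -3.75 (4.08 against 52.5 CPM). The stem list went 9 higher and 5 lower, with Lyl1 at 2.41 and Erg at 1.93 at one end and Gata2 at -3.00 at the other.

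**Figure D3:**
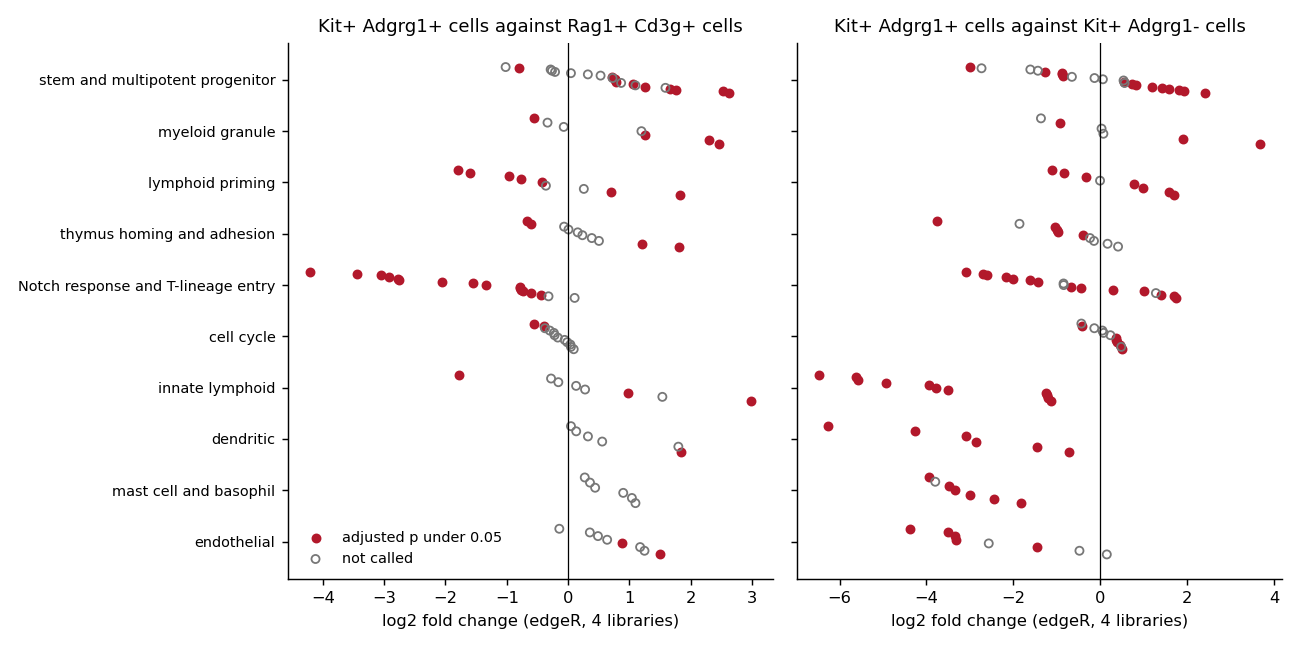
log2 fold change of the genes of 10 lists between Kit+ Adgrg1+ cells and Rag1+ Cd3g+ cells (left) or Kit+ Adgrg1- cells (right), filled where edgeR's adjusted p is under 0.05; positive values are higher in Kit+ Adgrg1+ cells. Mpo, Serpinb1a, Cd48 and Flt3 are drawn although the choice of cells named them. Genes with 3 or fewer UMIs in the other set are not drawn (Cxcr6, Klrk1, Ms4a2 and Tbx21 on the left, Ly6d and Mpo on the right); T-lineage entry genes other than Cd7 lie left of 0 on the left panel, and 15 of 17 are called lower.

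Within the gate the cells were not uniform, and differed among other genes in Gzma, a granule protease gene of cytotoxic lymphocytes. Gzma was the most abundant gene of the innate lymphoid list, at 1183, 1061, 1336 and 1319 CPM. In Rag1+ Cd3g+ cells it stood at 4243, 5021, 3518 and 3872 CPM. At 10000 UMIs per cell 56.0%, 47.3%, 59.8% and 53.6% of Kit+ Adgrg1+ cells had a Gzma UMI, against 10.6%, 4.10%, 7.23% and 7.24% of Pdgfra+ cells.

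Kit+ Adgrg1+ cells with and without Gzma were compared as a description, chosen after the values were seen and without a test. Of 4201 genes at 30 CPM or more on average, 29 (0.690%) were at least 2-fold higher in cells with Gzma in all 4 libraries and 2 (0.0476%) lower, with 5 CPM added to each level. The higher genes held T-lineage and innate-like lymphocyte genes: Tcf7 at 248 against 81.3 CPM in Tbx1+/+ carrier, Il2ra at 115 against 41.3, Cd3g at 178 against 14.3 and Bcl11b at 15.0 against 1.10, with Gzmb, Zbtb16, Lmo4, Cd163l1, Gal and Insl5 beside them. Mef2c was lower in cells with Gzma in each library, at 52.2 against 148, 34.4 against 149.8, 37.8 against 149 and 41.6 against 139 CPM, and the other lower gene was Ifi203. Mpo was lower too, with a median log2 ratio of -1.05 over the libraries (-1.39 to -0.70), as were Prtn3 at -1.03, Flt3 at -0.99, Serpinb1a at -0.84 and Cd48 at -0.66. Notch1 differed little, at -0.18, and Gata3 was higher by 0.96 and Hes1 by 0.42.

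**Figure D4:**
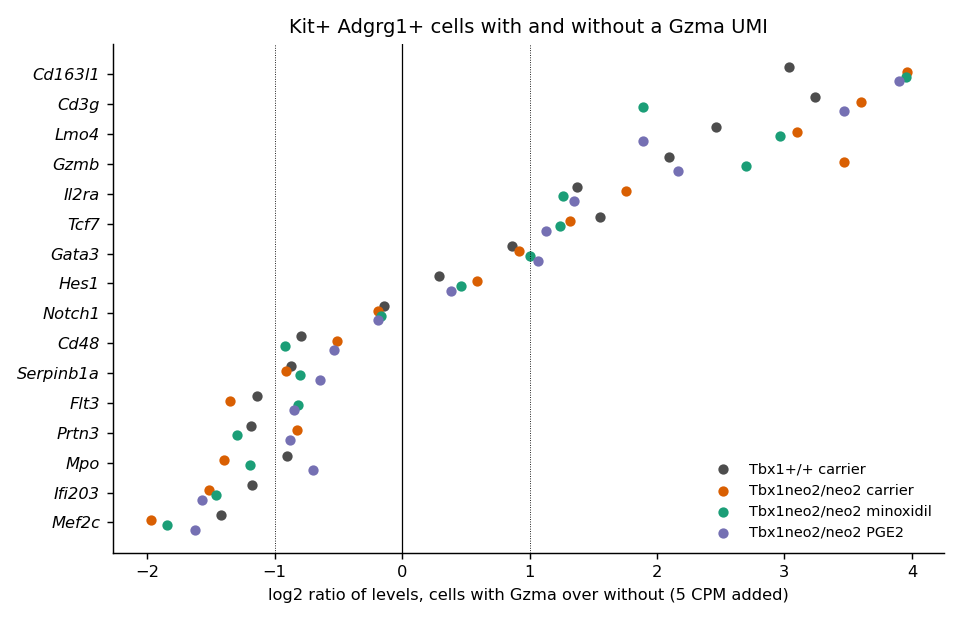
log2 ratio of levels between Kit+ Adgrg1+ cells with and without a Gzma UMI at 10000 UMIs per cell, 1 point per library, 5 CPM added; dotted lines mark 2-fold. Cd163l1, Cd3g, Lmo4, Gzmb, Il2ra and Tcf7 lie right of the 2-fold line in all 4 libraries and Mef2c and Ifi203 left of it.

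Cells at the edge of the gate are given as values, and few lay there for Adgrg1. A limit of 2 Adgrg1 UMIs would have kept 642, 193, 125 and 155 cells, and a limit of 2 Kit UMIs 523, 151, 127 and 139. Kit+ Adgrg1+ cells with exactly 1 Adgrg1 UMI (34, 14, 7 and 11 cells) had Mpo at 6.23, 9.34, 0 and 0 CPM and Gzma at 3519, 2873, 6888 and 4795 CPM. The cells just outside with none had Mpo at 0, 1.94, 0 and 0 CPM and Gzma at 1967, 2634, 2803 and 3866 CPM. Cells with exactly 1 Kit UMI had Mpo at 59.9, 82.3, 21.0 and 42.2 CPM, and Adgrg1+ cells with no Kit UMI at 54.8, 42.8, 44.8 and 58.5 CPM. Kit+ Adgrg1+ cells just outside with 1 Rag1 UMI (201, 47, 38 and 49 cells) had Mpo at 49.3, 23.8, 60.4 and 48.9 CPM and Cd3e at 27.7, 29.3, 16.8 and 36.4 CPM.

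Of the lists of other cell types, the erythroid list summed to 1326, 4658, 2262 and 4246 CPM and the innate lymphoid list, most of it Gzma, to 1746, 1759, 1922 and 2015 CPM. Of 11 mast cell and basophil genes, 6 were under 1 CPM; the list summed to 166, 275, 266 and 277 CPM, most of it Cpa3 at 148, 195, 216 and 255 CPM, a carboxypeptidase that early progenitors also transcribe. Cma1, a mast cell protease, was at 7.53, 42.0, 21.2 and 2.17 CPM, and cells that held at least 3 defining mast cell genes gave 32 of its 198 UMIs, 235 of 285, 12 of 191 and 11 of 19. Such cells numbered 8, 4, 5 and 3, and 3, 2, 1 and 1 cells held at least 3 defining endothelial genes. Granulocyte genes (8) summed to 2.06 to 5.63 CPM and B-lineage genes (8) to 30.1 to 33.0 CPM, led by Cd79b, with Pax5 at 0 in 3 of 4 libraries. Macrophage genes (10) summed to 68.7 to 88.8 CPM, dendritic genes (10) to 68.2 to 85.2 CPM, endothelial genes (8) to 92.7 to 147 CPM, epithelial genes (8) to 53.5 to 104 CPM and mesenchymal genes (8) to 85.5 to 120 CPM. Megakaryocyte genes (8) summed to 34.3 to 50 CPM, led by Itga2b. Parathyroid genes (4) were at 24.8 CPM in Tbx1+/+ carrier, led by Pth, and under 0.5 CPM elsewhere, and epithelial genes were highest in Tbx1+/+ carrier too.

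Globin RNA came in 2 forms. Hbb-bt, an adult beta globin, was spread over most Kit+ Adgrg1+ cells, with medians of 8.5, 14, 18 and 18 UMIs a cell and a UMI in 86.2%, 90.3%, 92.4% and 91.6% of cells. This was not particular to the gate. Rag1+ Cd3g+ cells had a UMI in 83.7%, 79.1%, 86.5% and 84.9% of cells, with lower medians of 6, 3, 5.5 and 4 UMIs. Pdgfra+ cells had a median of 0, 0, 0 and 1 UMIs, and at 10000 UMIs per cell the shares with a UMI were 70.0%, 77.3%, 68.9% and 70.5% in Kit+ Adgrg1+ cells against 15.6%, 22.8%, 15.4% and 24.2%. The Hbb-bt level of 694, 1002, 1030 and 1601 CPM was thus shared by many cells, although the 5 cells with most held 52.9% of its UMIs in PGE2. The UMIs of the other globins lay mostly in few cells: 4, 4, 1 and 2 cells with over 100 such UMIs held 82.7%, 96.6%, 90.7% and 94.4% of them, and a single cell held 10146 of 11503 Hbb-y UMIs in Tbx1+/+ carrier. At 10000 UMIs per cell 24.4%, 43.0%, 48.5% and 48.2% of cells had a UMI of Hbb-bs, against 30.7%, 48.3%, 41.9% and 59.7% of Pdgfra+ cells. The share was above that of Pdgfra+ cells in minoxidil and below it in the other libraries, and its source was not tested.

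Between libraries few genes of the Kit+ Adgrg1+ cells differed, and no gene of the stem, granule, priming, homing, T-lineage or cell cycle lists was among them. A gene counts here where its ratio is 2-fold or more, with Poisson 95% intervals that do not overlap, at 50 CPM or more in 1 of the 2 libraries. Against Tbx1+/+ carrier, Tbx1neo2/neo2 carrier had 6 genes higher (0.213% of 2811) and 12 lower (0.427%). The median log2 ratio was -0.06 for the stem list, 0.05 for granule genes and -0.08 for T-lineage entry, beside -0.06 for all genes. Higher were Hba-a1 (444 against 67.9 CPM), Hbb-y, Hba-a2, Hba-x, Hbb-bs and Xist, and without the cells rich in globin 1 gene was higher. Lower were Fos, an immediate early transcription factor gene, at 35.5 against 240 CPM, Fosb at 15.9 against 57.7, Junb at 66.2 against 151, Dusp1 at 28.5 against 82.9 and Btg2 at 51.2 against 121, with Rgs2, Cd69, Klf6, Nfkbia, Gm26532, 5430416N02Rik and Snhg12.

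Each drug library was set against the same Tbx1neo2/neo2 carrier library, so both comparisons share its values. The median log2 ratio was 0.25 in minoxidil and 0.27 in PGE2 for T-lineage entry, and 0.38 and 0.23 for homing genes. It was 0.03 and -0.02 for the stem list and 0.02 and 0.05 for granule genes, beside 0.02 in both for all genes. In minoxidil 33 genes were higher (1.18% of 2788) and 5 lower (0.179%). Hist1h3b stood at 71.7 against 6.78 CPM, Nme2 (a nucleoside diphosphate kinase) at 102 against 9.88, Hist1h2ap at 4219 against 659 and Fos at 221 against 35.5. Lower were Hbb-y, Hba-x, Hba-a1, the cell cycle inhibitor Cdkn1c at 15.9 against 50.1 CPM and Gm8730. In PGE2 23 genes were higher (0.825% of 2789) and 4 lower (0.143%). Fos stood at 431 against 35.5 CPM, Hbb-bs at 1702 against 193, Gm26532 at 87.7 against 10.6, Fosb at 76.6 against 15.9 and Dusp1 at 102 against 28.5, and lower were Xist (0 against 374 CPM), Hbb-y, Hba-x and Cdkn1c at 16.1 against 50.1. A single cell gave 154 of the 340 Cdkn1c UMIs of Tbx1neo2/neo2 carrier, 38 of 143 in minoxidil and 63 of 141 in PGE2. Without the top cell of each library the levels were 27.7 CPM in Tbx1neo2/neo2 carrier, 11.8 in minoxidil and 8.99 in PGE2. Pdgfra+ cells held Cdkn1c at 3520 CPM in Tbx1neo2/neo2 carrier, 2854 in minoxidil and 2922 in PGE2. The median Kit+ Adgrg1+ cell had 0 UMIs of Cdkn1c in each library, and carry-over of free RNA was not tested. Without the cells rich in globin, 2 genes were lower in each drug library in place of 5 and 4. The 5 cells with most held 98.7% of the Hbb-y UMIs of Tbx1neo2/neo2 carrier and 95.7% of the Hbb-bs UMIs of PGE2.

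Many of these differences were also found in other cells of the same libraries, most often for minoxidil. Of the 18 genes that differed between the carrier libraries, 12 were also 2-fold different in the same direction in Rag1+ Cd3g+ cells and 8 in Pdgfra+ mesenchymal cells. For minoxidil these were 34 and 33 of 38 genes, and for PGE2 17 of 27 and 14 of 26 with enough UMIs. Hist1h2ap, for example, had a log2 ratio of 2.68 between minoxidil and Tbx1neo2/neo2 carrier in Kit+ Adgrg1+ cells, 2.73 in Rag1+ Cd3g+ cells and 2.84 in Pdgfra+ cells, and Fos 2.63, 2.27 and 3.13. Rgs2, a regulator of G protein signals, went the other way in Pdgfra+ cells, with 1.43, 1.07 and -1.49 for minoxidil and 1.52, 0.63 and -1.84 for PGE2. Cdkn1c had -1.66, -2.21 and -0.30 for minoxidil, and Nfkbia, an inhibitor of NF-kappaB, 2.03, 1.32 and 0.12.

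**Figure D5:**
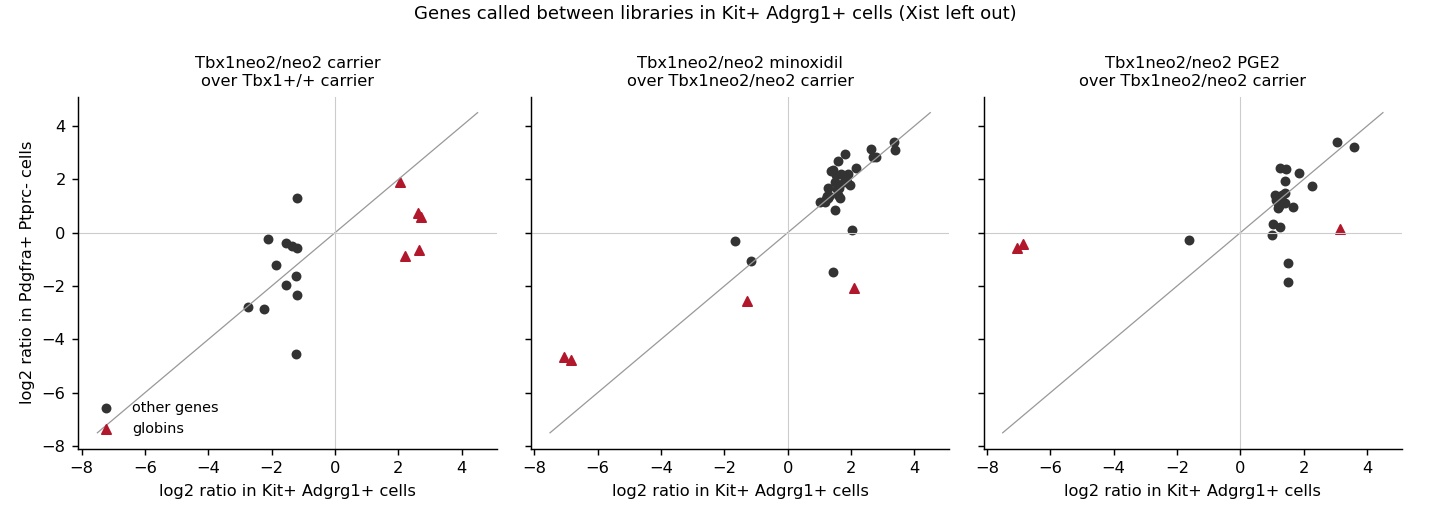
log2 ratio between 2 libraries of each gene that differed in Kit+ Adgrg1+ cells, there (x axis) and in Pdgfra+ Ptprc- cells (y axis); globins are red triangles, Xist is left out and the grey line marks equal ratios. In the minoxidil panel most points, such as Fos and Hist1h2ap, lie near the line, while globins lie off it.

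A few regulators lay just under the 50 CPM limit. At a limit of 20 CPM, Bcl11b was 4.60-fold higher in PGE2 than in Tbx1neo2/neo2 carrier (47.5 against 10.3 CPM), and Cxcr4 was 2.18-fold higher in minoxidil (37.9 against 17.4 CPM). At 10000 UMIs per cell Bcl11b had a UMI in 18.1% of cells in PGE2 and 7.73% in Tbx1neo2/neo2 carrier (27.7% and 14.0% at full depth), against 2.92% and 18.2% of Pdgfra+ cells, so that the share in Tbx1neo2/neo2 carrier was below that of its mesenchymal cells. Those mesenchymal cells differed from the rest: at full depth 25.2% had a Bcl11b UMI, with up to 18 in a cell. In Tbx1+/+ carrier, minoxidil and PGE2 the share was 8.79%, 6.92% and 5.80%. Whether Pdgfra+ cells show free RNA for this gene was not tested. The 5 cells with most held 40.5% and 45.7% of its UMIs. In Rag1+ Cd3g+ cells Bcl11b was at 193 CPM in PGE2 and 181 in Tbx1neo2/neo2 carrier. The gap in Bcl11b was thus present in cells without Rag1 and small in cells with it, and of the gated PGE2 cells 164 of 166 had a Y-linked UMI and 0 one of Xist.

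Xist and Y cells of 1 library again give a scale for these gaps, a different one in each carrier library. Between Xist and Y cells of the gate, 1 gene was higher and 4 lower of 2841 in Tbx1+/+ carrier (Xist, and Hbb-y, Hba-x, Hba-a1 and Erdr1), and 9 higher and 3 lower of 2730 in Tbx1neo2/neo2 carrier. In the latter the genes higher in Xist cells included Xist, Ccl5, Erdr1 and 5 globins, and Cpa3 (118 against 290 CPM), Jun and Cma1 were lower. Mpo was at 53.8 and 73.4 CPM and Gzma at 1235 and 829 CPM in those cells, a wider gap than between any of the 4 libraries for Gzma and for Mpo. In Tbx1+/+ carrier Mpo was at 67.5 and 60.9 CPM and Gzma at 1222 and 1182 CPM. The Fos level was low in both kinds of Tbx1neo2/neo2 carrier cell, at 26.4 and 46.0 CPM, and high in both of Tbx1+/+ carrier, at 234 and 236 CPM.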

How the data were processed

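The authors deposited, per library, a matrix of UMI counts from droplet RNA-seq; their processing notes name Cell Ranger 5.0.1, mm10 and Seurat. All 4 libraries of 27998 genes were used. The cells and gene lists were chosen with earlier results of these data known. Gates, sums and thinning used Python 3.11.15, numpy 2.4.6, scipy 1.17.1 and pandas 2.3.3, plots matplotlib 3.10.9. Shares have Clopper-Pearson and levels Poisson 95% intervals; levels of 0 were set to 3 counts in ratios. Cell sets were compared with edgeR 4.0.16 in R 4.3.3 (TMM, filterByExpr, glmQLFit, glmQLFTest, library as block) on summed counts, leaving out 9 gate genes. The test was first tried on simulated data with known changes. Alternatives included DESeq2 1.42.0. Doublets were called with Scrublet in scanpy 1.11.5 and kept: it marked 4.94%, 0%, 2.19% and 1.81% of kept cells, so that it has not worked in Tbx1neo2/neo2 carrier, and 8, 0, 1 and 1 of the Kit+ Adgrg1+ cells. Thinning to 10000 UMIs left out 480, 50, 6 and 16 Ptprc+ cells, of which 13, 0, 0 and 0 were Kit+ Adgrg1+ cells. Named genes were those of the gate and label, the 10 largest and smallest changes between sets, the 5 between libraries, and the most abundant and called genes of the role lists; other names were added after their values were seen. Of 191 list genes 189 were in the files. Promoters came from RefSeq on GRCm38.p6, gene bodies from GENCODE on GRCm38. The study's text states that lobes of hypoplastic tissue were pooled, while the design text speaks of an embryo per condition; the number per library is not given in the sources used here. Some genes that met the rule are not reported here.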

Additional observations from a re-analysis of the deposited data

How the results depend on the processing

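With 1 library per condition, no difference between conditions could be tested, and sex differs with the drugs. No paired analysis of the conditions was possible because each has 1 library; between cell sets, no replicate block gave 328 higher and 448 lower genes against Rag1+ Cd3g+ cells in place of 561 and 725. Leaving out 1 library gave 348 to 397 and 460 to 545 there (348 and 460 without minoxidil, 367 and 472 without Tbx1+/+ carrier), and 1525 to 2057 and 1674 to 2254 against Kit+ Adgrg1- cells. Gates thinned to 10000 UMIs gave 398 and 718 in the latter and turned Hes1 to -0.0084 and Itgb1 to 0.056 (log2). Of the fold changes of named genes under alternatives, 1062 kept direction and call, 55 lost the call and 2 reversed.

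The shares of Ptprc+ cells moved as follows, in percent. Tbx1+/+ carrier gave 24.3 at a mitochondrial limit of 5% and also without Scrublet doublets, 17.2 with Kit of at least 2 UMIs, 25.7 with Ptprc of at least 2, 40.1 with Epcam, Pdgfra and Csf1r cells out of the denominator, 5.89 of all kept cells and 12.2 at 5000 UMIs. Tbx1neo2/neo2 carrier gave 14.3 with Kit of at least 2, 36.2 and 1.94 with those denominators, 15.5 at 10000 and 9.58 at 5000 UMIs. Minoxidil gave 34.6 and 4.12, then 21.7 and 9.57. PGE2 gave 11.4 with Kit of at least 2, 31.4 and 4.0, and 6.83 at 5000 UMIs. The causes were not tested beyond what each setting removes.

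Counts between libraries followed their limits. At 1.5-fold there were 11 higher and 31 lower genes for Tbx1neo2/neo2 carrier, 86 and 9 for minoxidil and 51 and 8 for PGE2. At 20 CPM there were 22 lower genes for Tbx1neo2/neo2 carrier, 56 and 9 for minoxidil and 46 and 9 for PGE2, and at 100 CPM 5 lower for Tbx1neo2/neo2 carrier and 3 lower for minoxidil. Without the globin-rich cells, a setting chosen after seeing the data, 1 gene was higher for Tbx1neo2/neo2 carrier, and 2 lower for minoxidil and 2 for PGE2. Leaving out cells with mast or endothelial genes, also chosen later, gave 794 higher and 916 lower genes against Rag1+ Cd3g+ cells and 2171 and 2306 against Kit+ Adgrg1- cells.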
